A study of Homo sapiens with 8 samples.

Results

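The genes described here are 35 classical estrogen-responsive genes of luminal breast cells, chosen by symbol from a list that leaves out the hormone receptors themselves. All 35 were found among the 26475 genes of the deposited count table, and the rule that lists them uses no measured value. RNA was sequenced from BT474, an established human breast cancer line with amplified ERBB2, in 4 libraries labelled NPY1R high and 4 labelled NPY1R low. NPY1R encodes the Y1 receptor for neuropeptide Y, and the label that sets the groups is given as a genotype, without a statement of how the high and low cells were obtained. The series title concerns persister cells left by lapatinib, which blocks the kinases EGFR and ERBB2, but no drug, dose or time is given for any of the 8 libraries. All 8 come from the same line and, per the labels, were plated in 6-well plates below confluence. Nothing states that the libraries of a group came from separate cultures, so the p-values measure only the spread between these libraries, which may be technical. The question here is whether genes known to respond to estrogen differ between the NPY1R high and the NPY1R low libraries.

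Estrogen receptor alpha, the product of ESR1, is a nuclear receptor that binds estradiol, pairs with a second copy of itself and attaches to estrogen response elements in DNA. These elements are inverted repeats of a short core, and many lie far from the genes they serve, next to sites bound by the forkhead factor FOXA1. In luminal breast cells the genes switched on in this way include PGR, the trefoil peptide TFF1 and GREB1, and NPY1R itself is known as an estrogen-induced gene.

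The libraries held between 18025648 and 30609791 counts, and 14008 genes had enough counts to be tested. Values below are CPM, the counts of a gene scaled to a library of fixed size, after scaling by the trimmed mean of M-values (TMM), and log2 changes are high minus low. Tests are edgeR's quasi-likelihood test with Benjamini-Hochberg adjustment over all 14008 genes, with a threshold of 0.05. The libraries also differed in a way that the groups do not explain. Each library's deviation from the mean of all 8 libraries was rank-correlated across genes with transcript GC content. The correlation had its extremes in the low group, at -0.558 in replicate 4 and 0.463 in replicate 1. It is across genes, which do not stand as independent replicates, and has no p. Replicates 1 and 2 also differed from replicates 3 and 4 in both groups, and the labels name no batch for this. Markers of the luminal epithelium were abundant, with KRT8 at 1511 ± 139.6 CPM in high and 1428 ± 209.5 in low (SD, n = 4 each). Among markers of other cell types, KRT14 (basal), DCN and PDGFRB (fibroblast) and CD3E (immune) were listed at 0 in all 8 libraries, whereas others were not. TP63 (basal) averaged 6.36 CPM in high and 6.28 in low, COL1A1 (fibroblast) 14.1 and 15.4, CD68 (immune) 1.08 and 1.63, and VWF (endothelial) 11.7 and 16.1.

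NPY1R was higher in every library labelled high. NPY1R was at 699.3, 727.8, 1049 and 950.2 CPM in high replicates 1 to 4 and at 90.8, 94.9, 92.8 and 103.6 CPM in low replicates 1 to 4. ESR1 was at 107.2, 106.1, 100 and 108.5 CPM in high and 68.9, 74.1, 67.3 and 70.1 CPM in low. PGR, the progesterone receptor and a standard readout of receptor activity, was at 1920, 2034, 2203 and 2505 CPM in high and 568.7, 611.2, 758.6 and 700.6 CPM in low. In NPY1R, ESR1 and PGR alike the groups did not overlap. The log2 changes were 3.16 (SE 0.13) for NPY1R, 0.59 (SE 0.05) for ESR1 and 1.71 (SE 0.11) for PGR.

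Most of the estrogen-responsive genes were higher in NPY1R high. Of the 35, 34 were tested and 18 rose (52.9%), against 5.78% of all genes tested. Another 3 fell (8.82%), against 7.81% of all genes, so the share that fell was near that of the table as a whole. In either direction 21 of 34 passed the threshold (61.8%), against 13.6% of all genes. The median log2 change of the 34 was 0.44, and that of all tested genes was -0.03. Over all tested genes, 44.1% had a change above 0, and of the 34 it was 27 (79.4%). The remaining gene, WISP2, a matricellular protein, had 9, 7, 10 and 16 counts in high and 7, 3, 4 and 8 in low and was not tested.

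The changes were mostly modest. Of the 18 genes that rose, 4 rose by at least 2-fold (PDZK1, CXCL12, NAT1 and SUSD3), 7 by 1.5 to 2-fold and 7 by less than 1.5-fold, and their median log2 change was 0.62. Within the high group, PDZK1, CXCL12, NAT1 and SUSD3 were all highest in replicates 3 and 4, the libraries in which NPY1R was highest too. Within the low group PDZK1, CXCL12 and NAT1 were also highest in replicates 3 and 4, but SUSD3 was not. NPY1R ran only from 90.84 to 103.65 CPM there. Whether these genes follow the level of NPY1R was not tested. The lowest of the 4 high libraries lay above the highest of the 4 low libraries for 20 of the 34 genes (58.8%), against 8.78% of all genes tested. The reverse held for 4 (11.8%), against 11.4% of all genes, and 10 overlapped. The 35 genes together took 0.430%, 0.434%, 0.421% and 0.442% of the counts in high and 0.366%, 0.365%, 0.352% and 0.339% in low, so every high library held a larger share than every low one. In all 21 genes past the threshold the groups did not overlap. The direction was therefore bound to be the same among replicates 1 and 2 as among replicates 3 and 4. In bulk RNA, fewer cells that express a gene and less RNA of it per cell cannot be told apart. The split of all called genes depended on the scaling. With TMM, 42.5% were higher when the default reference library, NPY1R low replicate 4, was used. With any other library as the TMM reference, 49.5% to 53.1% were higher. The share was 49.8% with median-of-ratios size factors, 54% with library totals and 56.3% with upper-quartile factors. With upper-quartile factors 19 of the 34 rose and 2 fell.

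**Figure D1:**
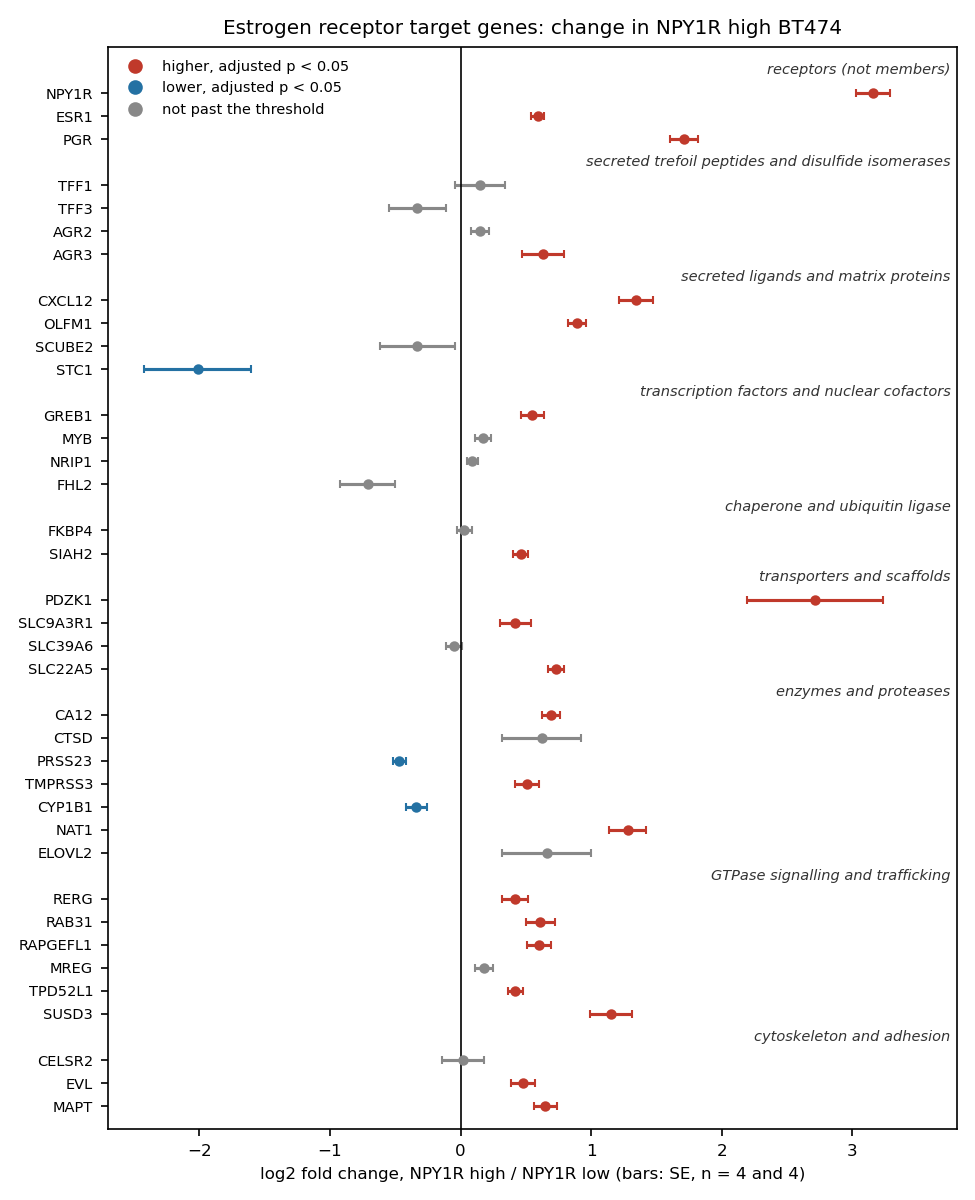
Log2 changes (x axis, NPY1R high minus low, with bars of 1 standard error) of the 34 tested estrogen-responsive genes, grouped by role. Red and blue points passed an adjusted p of 0.05, and grey points did not. Of the 34 genes, 18 are red, to the right of 0, and 3 are blue, to the left. NPY1R, ESR1 and PGR, which are not among the 34, are also shown, in red to the right of 0.

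The transcription start regions of the genes were searched for the receptor's core motif, because most of the genes that passed the threshold moved in the same direction. RefSeq promoter sequences (GRCh38.p14) were at hand for 25 of the 35, and the 250 bases before the start were read on both strands. None was at hand for TFF1, TFF3, WISP2, STC1, GREB1, FKBP4, CYP1B1, NAT1, RERG and MAPT, so the counts below do not cover these genes. The full inverted repeat, GGTCANNNTGACC, was found in 0 of 25 of these windows and in 0.0439% of all 27305 promoters. Allowing 1 mismatch it was found in 0 of 25 and in 0.736% of all. The core alone, GGTCA on either strand, was in 11 of 25 (44%) and in 33.1% of all promoters of that length. It was in 8 of the 14 genes with a window that rose and in 3 of the other 11. No match means only that these letters are not in this window. For 20 of the 25 genes the start in this table is the outermost start of the gene, and for FHL2, PRSS23, RAPGEFL1, TMPRSS3 and TPD52L1 it is the start of a transcript that begins inside the gene. A match is a description of the letters and not a shown binding site.

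Among the genes that rose, windows of 45 bases around the core are printed for 6, and 2 are printed for genes that did not pass the threshold (SLC39A6 and MREG). All 8 windows lie before the outermost start of their gene. The core is in capitals, and each window is read 5′ to 3′ along the gene's strand.
PDZK1 (chr1:145707444-145707488, minus strand): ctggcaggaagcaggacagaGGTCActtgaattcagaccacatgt
CXCL12 (chr10:44385281-44385325, minus strand): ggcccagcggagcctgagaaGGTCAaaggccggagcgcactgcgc
CA12 (chr15:63382018-63382062, minus strand): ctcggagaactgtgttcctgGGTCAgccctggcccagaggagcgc
AGR3 (chr7:16882013-16882057, minus strand): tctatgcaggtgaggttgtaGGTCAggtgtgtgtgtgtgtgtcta
EVL (chr14:99971241-99971285, plus strand): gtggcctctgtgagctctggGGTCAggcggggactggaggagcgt
RAB31 (chr18:9708225-9708269, plus strand): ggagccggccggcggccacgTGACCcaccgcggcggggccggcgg
SLC39A6 (chr18:36129491-36129535, minus strand): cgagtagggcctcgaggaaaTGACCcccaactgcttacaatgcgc
MREG (chr2:216034175-216034219, minus strand): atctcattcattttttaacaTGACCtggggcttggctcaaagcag
The first base of the printed core lay 68 bases before the start of PDZK1, 208 before CXCL12, 196 before CA12 and 54 before AGR3. For EVL, RAB31, SLC39A6 and MREG it lay 161, 56, 175 and 103 bases before the start. Some matches are not printed. CTSD, which did not pass the threshold, held the core 195, 43 and 18 bases before its start. AGR3 also held it 225 bases before its start, and RAPGEFL1 and TMPRSS3, which rose, held it too. The core was thus present both in genes that rose and in genes that did not.

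Other motifs were spread differently over the windows. The GC box, GGGCGG, was in 17 of 25 (68%), against 42.3% of all promoters. The forkhead core TGTTTAC was in the window of MYB alone (4%, against 2.98%). The AP-1 motif TGANTCA was in 0 of 25, against 6.6%.

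Of the trefoil peptides and disulfide isomerases, 1 of 4 rose. This count, and those by role below, stand beside the 5.78% of all genes tested that rose and the 7.81% that fell. The roles are small groups made for this description, and none was tested as a set. TFF1 and TFF3 encode small secreted peptides that protect mucosal surfaces, and AGR2 and AGR3 encode protein disulfide isomerases of the secretory pathway. TFF1 was at 237.8, 212.3, 187.2 and 198.6 CPM in high and at 214.1, 233.6, 190.6 and 112.5 CPM in low, with overlapping groups. Its log2 change was 0.15 (SE 0.19, edgeR adjusted p = 0.686). TFF3 was at 130.7, 103.7, 97.3 and 118.8 CPM in high and at 168.9, 182.5, 134.8 and 79.8 CPM in low. For both peptides low replicate 4 was the lowest of the 8 libraries. The log2 change of TFF3 was -0.33 (SE 0.22, edgeR adjusted p = 0.396), and -0.49 with an adjusted p of 0.0132 without low replicate 4. TFF1 and TFF3 have transcript GC contents of 56.1% and 57.8%, and with an offset for each library's trend on GC content neither passed the threshold (adjusted p 0.332 and 0.206). AGR2 was at 447.1 ± 23.5 CPM in high and 403.9 ± 29.9 in low (SD, n = 4), a log2 change of 0.15 (SE 0.07, edgeR adjusted p = 0.189).

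AGR3, which is much less abundant, rose. It was at 7.59, 7.77, 9.73 and 7.93 CPM in high and at 4.03, 5.15, 6.68 and 5.54 CPM in low, so the groups did not overlap. The log2 change was 0.63 (SE 0.16, edgeR adjusted p = 0.0281). The call was lost without high replicates 2, 3 or 4 (adjusted p 0.0544, 0.0737 and 0.0555) and without low replicates 1 or 2 (0.0596 and 0.0667).

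The trefoil peptides lie beside a gene that did rise. On chromosome 21 (GRCh38.p14), TFF3 spans 42311667 to 42315409, TFF1 spans 42362282 to 42366535 and TMPRSS3, a membrane serine protease, spans 42371890 to 42396052. TMPRSS3 was at 21.6, 23.6, 23.3 and 23.5 CPM in high and at 17.3, 17.6, 14.6 and 15 CPM in low, and the groups did not overlap. Its log2 change was 0.51 (SE 0.09, edgeR adjusted p = 0.00375). TFF2, the trefoil gene of the same cluster that is not among the 35, had 103 counts in all and a log2 change of -1.03 (SE 0.39, edgeR adjusted p = 0.118). On chromosome 7, AGR2 spans 16791811 to 16804999 and AGR3 16854681 to 16881983, so a gene past the threshold and one that was not also lie side by side there.

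**Figure D2:**
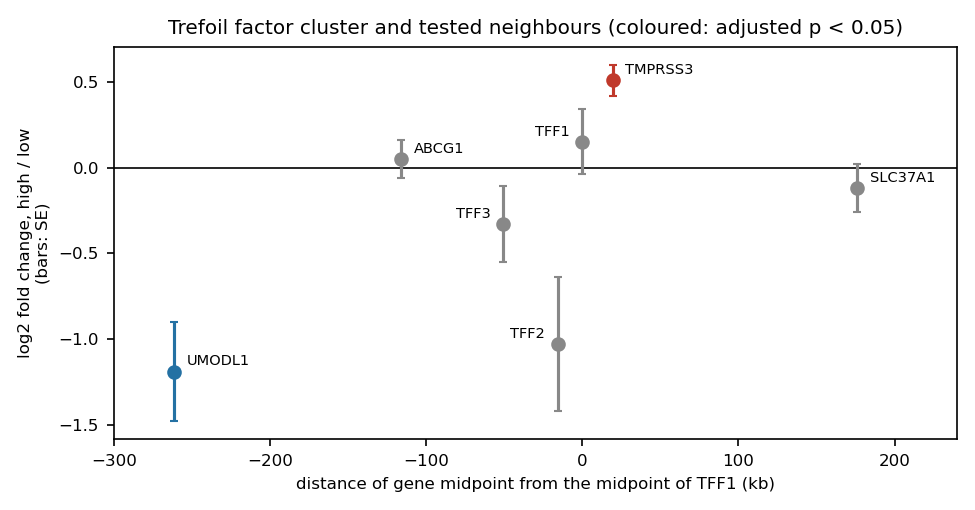
Log2 changes (y axis, NPY1R high minus low, with 1 standard error) of the tested genes of the trefoil region, by distance from TFF1 (x axis, kb). TMPRSS3 at 0.51 lies above 0, UMODL1 at -1.19 lies below 0, and both passed the threshold (coloured). TFF1 at 0.15 and TFF3 at -0.33 did not.

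Among secreted ligands and matrix proteins, 2 of 4 tested genes rose and 1 fell. CXCL12, the chemokine ligand of CXCR4, was at 30.8, 27.3, 39.1 and 39.5 CPM in high and at 12.2, 12.8, 14.4 and 14.4 CPM in low. Every high library was above every low one. The log2 change was 1.34 (SE 0.13, edgeR adjusted p = 0.000125). OLFM1, a secreted olfactomedin glycoprotein, was at 40.8, 39.3, 43.2 and 42.2 CPM in high and at 23.3, 23, 21.4 and 21.6 CPM in low. The spread within each group was small beside the difference, and its log2 change was 0.89 (SE 0.07, edgeR adjusted p = 2.3e-05).

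STC1, the glycoprotein hormone stanniocalcin 1, went the other way at a low level. It had 8, 4, 4 and 5 counts in high and 16, 17, 21 and 34 counts in low, and the groups did not overlap. It fell by 2.01 on the log2 scale (SE 0.41, edgeR adjusted p = 0.0091). SCUBE2, a secreted protein that helps release Hedgehog ligands, was at 2.28 ± 0.62 CPM in high and 2.84 ± 0.94 in low (SD, n = 4), with a log2 change of -0.33 (SE 0.29, edgeR adjusted p = 0.548).

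Of the nuclear factors, GREB1 alone of 4 rose. GREB1, a nuclear cofactor of the estrogen receptor, was at 659.9, 663.2, 607.2 and 796.8 CPM in high and at 432.8, 434.6, 527.2 and 471.4 CPM in low. The groups did not overlap, and the log2 change was 0.55 (SE 0.09, edgeR adjusted p = 0.00351). MYB, a transcription factor, was at 70.5, 68.7, 72.2 and 66.2 CPM in high and at 57.6, 64.5, 59 and 65.4 CPM in low. NRIP1, a corepressor that binds hormone-bound nuclear receptors, was at 231.9, 237.4, 237.4 and 230.8 CPM in high and at 221.4, 216.4, 214 and 229.3 CPM in low. For both genes the groups did not overlap but lay close together. Neither passed the threshold, with log2 changes of 0.17 (SE 0.06, edgeR adjusted p = 0.101) and 0.09 (SE 0.04, edgeR adjusted p = 0.241). MYB passed it without low replicate 4 (0.24, adjusted p = 0.0323) and with upper-quartile factors (0.23, adjusted p = 0.0454). MYB also passed with low replicate 1 or 2 as the TMM reference (edgeR adjusted p 0.0455 and 0.0425). With a minimum of 1 CPM in 4 libraries it passed too (edgeR adjusted p = 0.0392).

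FHL2, a LIM-domain cofactor, was at 2.89, 4.5, 4.85 and 5.45 CPM in high and at 6.24, 5.81, 8.74 and 7.97 CPM in low. The groups did not overlap, with the low libraries above, and the log2 change was -0.71 (SE 0.21, edgeR adjusted p = 0.052). It passed the threshold without low replicate 2 (-0.80, adjusted p = 0.0457), with the GC offset (-0.70, adjusted p = 0.0265) and with DESeq2 (-0.68, adjusted p = 0.0213). It also passed with the replicate block (-0.72, adjusted p = 0.0197) and in a fit that set replicates 1 and 2 apart from 3 and 4 (-0.71, adjusted p = 0.00541). FHL2 overlaps C2orf49, which averaged 39.3 CPM, and no source used here says whether the counting used the strand.

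Of the chaperone and the ubiquitin ligase, the ligase rose. SIAH2, an E3 ubiquitin ligase, was at 196.4, 196.6, 220.1 and 212.9 CPM in high and at 147.6, 145.1, 149.1 and 158.3 CPM in low. The groups lay well apart, with a log2 change of 0.46 (SE 0.06, edgeR adjusted p = 0.000448). FKBP4, a cochaperone of steroid receptors, was at 446.1 ± 30 CPM in high and 437.8 ± 13.4 in low (SD, n = 4), with a log2 change of 0.03 (SE 0.06, edgeR adjusted p = 0.839).

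Of the transporters and scaffolds, 3 of 4 rose. PDZK1, which holds transporters at the apical membrane, was at 2.23, 1.9, 6.59 and 5.45 CPM in high and at 0.5, 0.21, 1.05 and 0.75 CPM in low. It had the largest log2 change of the 34, 2.71 (SE 0.52, edgeR adjusted p = 0.00688), on 51 to 182 counts a library in high and 6 to 23 in low. Its deposited counts were not whole in all 8 libraries, so some of its reads were shared with another gene and its level is uncertain. Both groups held higher PDZK1 in replicates 3 and 4. The difference of mean log2 CPM (prior count 2) was 2.39 among replicates 1 and 2 and 2.65 among replicates 3 and 4. This measure is not the fitted log2 change, so these values do not compare directly with 2.71. SLC22A5, a carnitine transporter, was at 35.8, 36.5, 36.6 and 35.4 CPM in high and at 22.4, 20.4, 22.3 and 21.8 CPM in low. Its replicates were among the most alike of the genes here, and its log2 change was 0.73 (SE 0.06, edgeR adjusted p = 5.8e-05).

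SLC9A3R1, a scaffold of the same kind as PDZK1, was at 355.6, 318, 334 and 374.4 CPM in high and at 292.2, 283.2, 259.1 and 194.6 CPM in low. The groups did not overlap, and low replicate 4 was the lowest library. The log2 change was 0.42 (SE 0.12, edgeR adjusted p = 0.0373). The call was lost without high replicates 1, 2 or 4 (adjusted p 0.0871, 0.0544 and 0.0803) and without low replicate 3 (0.0664). SLC39A6, a zinc transporter known as LIV-1, was at 399.3 ± 27.6 CPM in high and 412.3 ± 19 in low (SD, n = 4), and its log2 change of -0.05 (SE 0.06, edgeR adjusted p = 0.719) turned to 0.007 with upper-quartile factors.

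The enzymes and proteases split, with 3 of 7 higher and 2 lower. NAT1, an arylamine N-acetyltransferase, was at 46.8, 50.4, 66.8 and 60.6 CPM in high and at 20.3, 20.3, 24.9 and 27 CPM in low. The groups did not overlap, and the log2 change was 1.28 (SE 0.14, edgeR adjusted p = 0.000211). CA12, a membrane carbonic anhydrase, was at 128.3, 134.6, 131.4 and 136.8 CPM in high and at 90.3, 86.6, 75.8 and 77.3 CPM in low. It rose by 0.69 on the log2 scale (SE 0.07, edgeR adjusted p = 0.000104). TMPRSS3, described with the trefoil peptides, was the third to rise.

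The genes that fell in this class were a protease and an estrogen-metabolising enzyme. PRSS23, a secreted serine protease, was at 151.7, 151.2, 162.9 and 151.9 CPM in high and at 228.6, 208.7, 201.9 and 217.5 CPM in low. It fell by 0.47 on the log2 scale (SE 0.05, edgeR adjusted p = 0.000327). Its deposited counts were not whole in all 8 libraries, and it overlaps FZD4, a Wnt receptor gene at 42.8 CPM that fell by 0.67 (SE 0.07, edgeR adjusted p = 0.000264), so its own value is uncertain. CYP1B1, which hydroxylates estradiol, was at 29.6, 29.9, 31.3 and 30 CPM in high and at 35.6, 35, 42 and 40.3 CPM in low. The groups did not overlap, and it fell by 0.34 (SE 0.08, edgeR adjusted p = 0.0152). Its call was lost without high replicates 3 or 4 (adjusted p 0.052 and 0.0821), without low replicates 3 or 4 (0.096 and 0.0525), and with upper-quartile factors (0.0527).

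CTSD, a lysosomal aspartic protease, was at 160.9, 136.7, 98.5 and 120.6 CPM in high and at 110.7, 115.4, 72.6 and 37.6 CPM in low. The groups overlapped, and the log2 change was 0.62 (SE 0.30, edgeR adjusted p = 0.231). CTSD has a transcript GC content of 63.5%, and with an offset for each library's trend on GC content its change was 0.71 (adjusted p = 0.00462). ELOVL2, a fatty acid elongase, was at 1.24 ± 0.43 CPM in high and 0.78 ± 0.28 in low (SD, n = 4), with a log2 change of 0.66 (SE 0.34, edgeR adjusted p = 0.259).

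**Figure D3:**
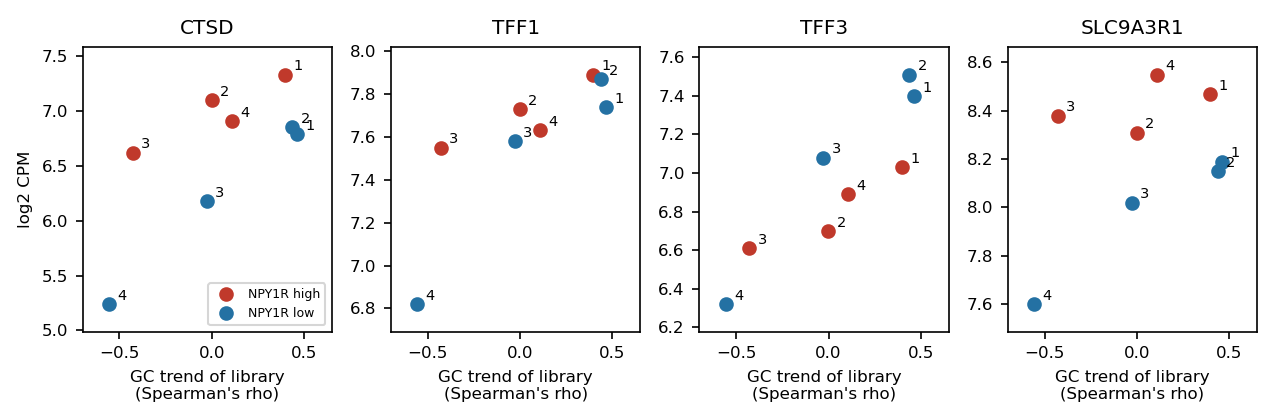
Log2 CPM (y axis) of CTSD, TFF1, TFF3 and SLC9A3R1 in each library, against that library's rank correlation with transcript GC content across genes (x axis), with NPY1R high in red, NPY1R low in blue and the replicate number beside each point. NPY1R low replicate 4, at -0.558, has the lowest value for each of the 4 genes.

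Of the genes grouped here under small GTPase signalling and trafficking, a loose group, 5 of 6 rose, against 5.78% of all genes tested. SUSD3, a membrane protein with a sushi domain, was at 28.8, 24, 35.9 and 40.1 CPM in high and at 14.3, 15.7, 15.5 and 12.5 CPM in low. Its log2 change was 1.15 (SE 0.16, edgeR adjusted p = 0.000911). RAB31, a GTPase of vesicle transport, was at 10.2, 12.3, 11.1 and 9.47 CPM in high and at 6.81, 6.9, 7.14 and 7.27 CPM in low. RAPGEFL1, which resembles the exchange factors of RAP GTPases, was at 40.8, 42.1, 46.7 and 53.5 CPM in high and at 29.6, 28.7, 32.8 and 30 CPM in low. For SUSD3, RAB31 and RAPGEFL1 the groups did not overlap. RAB31 rose by 0.61 (SE 0.11, edgeR adjusted p = 0.00405) and RAPGEFL1 by 0.60 (SE 0.09, edgeR adjusted p = 0.00217).

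RERG, a RAS-like protein that restrains growth, was at 21.2, 19.2, 25.6 and 21.5 CPM in high and at 16.8, 16.3, 16.2 and 15.8 CPM in low. TPD52L1, a coiled-coil protein of the tumor protein D52 family, was at 157.5, 157.1, 178.4 and 171.5 CPM in high and at 130.4, 129.5, 116.7 and 119.5 CPM in low. Both separated the groups, with log2 changes of 0.42 (SE 0.10, edgeR adjusted p = 0.0166) for RERG and 0.42 (SE 0.06, edgeR adjusted p = 0.00157) for TPD52L1. MREG, a vesicle trafficking protein, was at 85.9 ± 5.73 CPM in high and 76 ± 5.58 in low (SD, n = 4), and its log2 change of 0.18 (SE 0.07, edgeR adjusted p = 0.139) passed the threshold without low replicate 4 (0.27, adjusted p = 0.0283).

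Of the cytoskeletal and adhesion genes, 2 of 3 rose. MAPT, which encodes the microtubule-binding protein tau, was at 30, 28.8, 23.7 and 30.4 CPM in high and at 18.3, 16.7, 18.1 and 18.5 CPM in low. EVL, an actin regulator of the Ena/VASP family, was at 40.9, 34, 38.3 and 41 CPM in high and at 29.6, 29.5, 27.6 and 24 CPM in low. Neither gene's groups overlapped, with log2 changes of 0.65 (SE 0.09, edgeR adjusted p = 0.0012) and 0.48 (SE 0.09, edgeR adjusted p = 0.00677). EVL overlaps DEGS2, which averaged 8.82 CPM. CELSR2, an adhesion receptor of the cadherin family, was at 21.8 ± 4.21 CPM in high and 21.6 ± 3.38 in low (SD, n = 4), with a log2 change of 0.02 (SE 0.16, edgeR adjusted p = 0.970) that turned to -0.006 with limma-voom.

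**Figure D4:**
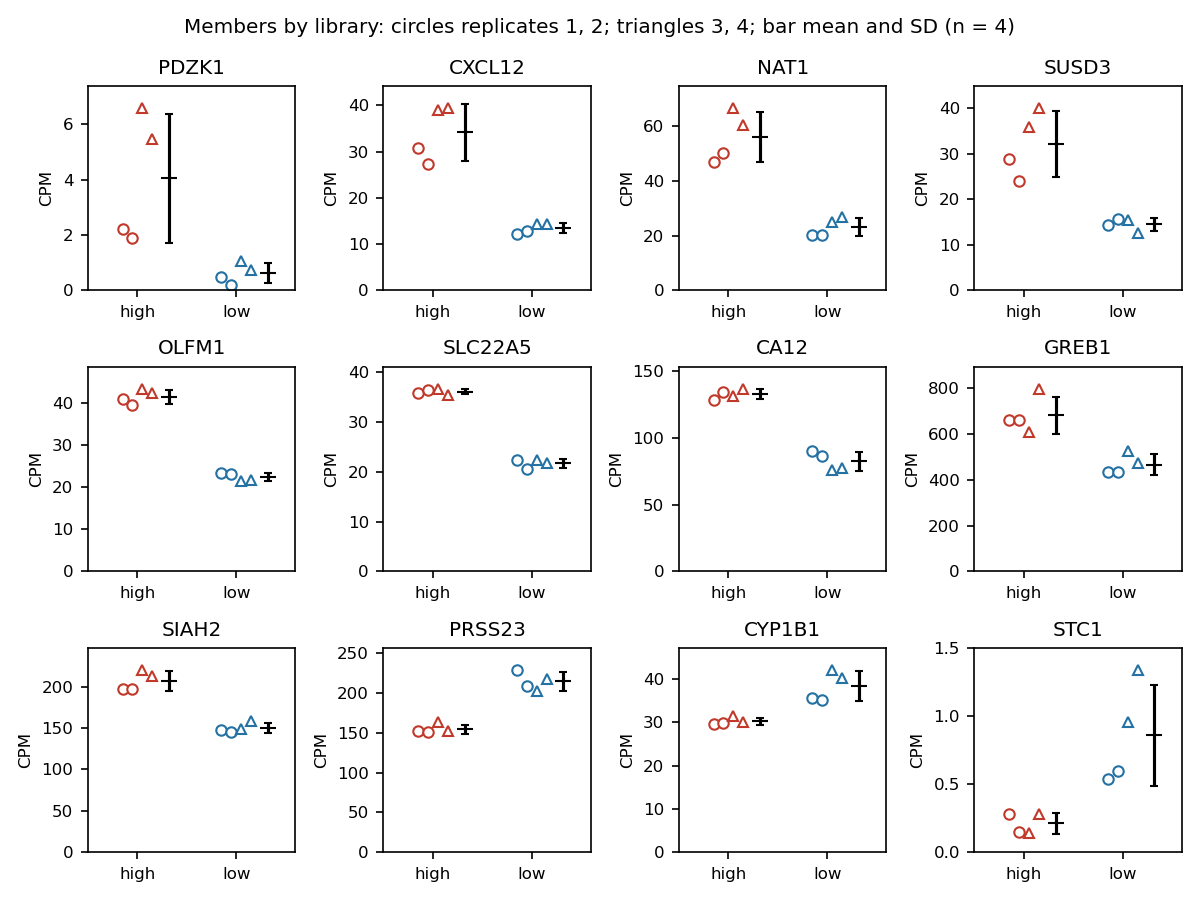
CPM (y axis, from 0) of 12 estrogen-responsive genes in each NPY1R high (red) and NPY1R low (blue) library, with replicates 1 and 2 as circles, 3 and 4 as triangles, and the group mean and SD (n = 4) in black. In the first 9 panels, PDZK1 to SIAH2, every high library lies above every low one, and in PRSS23, CYP1B1 and STC1 every low library lies above.

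The levels of the 35 genes spanned a wide range when scaled by transcript length. Per kilobase, TFF1 led at 379 CPM in high and 341 in low, followed by AGR2 at 349 and 316. FKBP4 came next at 229 and 225, and SLC9A3R1 at 212 and 158. TFF3 was at 149 in high and 187 in low, which placed it at rank 7 in high and rank 4 in low. STC1 was lowest in high at 0.0749 CPM per kilobase, with 0.304 in low. The most abundant of the genes by this scale, TFF1, AGR2 and FKBP4, were thus among those that did not pass the threshold. The transcript length was the median over annotated transcripts, so ranks between genes of near level are approximate.

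The genes were also read beside lists of related genes, which were written with earlier results of these data known. Of 51 other estrogen-induced genes 48 were tested, and 21 rose (43.8%, against 5.78% of all genes tested) and 3 fell (6.25%, against 7.81%), with a median log2 change of 0.29. The largest log2 change among them, 5.99 (SE 0.69), was that of the connexin gene GJA1, which had 80, 104, 231 and 146 counts in high and 2, 0, 0 and 7 in low, where a count of 0 allows up to 3. GFRA1, a coreceptor for the GDNF family, went from 17.8 ± 3.91 CPM in low to 242.6 ± 37.9 in high (SD, n = 4), a change of 3.77 (SE 0.17). CALCR, the calcitonin receptor, rose by 2.95 (SE 0.13). HSPB8, a small heat shock protein, went from 41.5 ± 6.53 CPM in low to 292.2 ± 34.7 in high (SD, n = 4), a change of 2.81 (SE 0.13). TFPI2 rose by 2.12 (SE 0.26) and BCL2, an inhibitor of apoptosis, by 1.53 (SE 0.11). KCNK15 rose by 1.47 (SE 0.19) and IRS1, an insulin receptor adaptor, by 1.17 (SE 0.10). The 3 that fell were SERPINA3, RET and KLF4, with changes of -0.65 (SE 0.16), -0.49 (SE 0.14) and -0.32 (SE 0.09).

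Of 6 tested genes known to be repressed by estrogen, 1 passed the threshold (16.7%, near the 13.6% of all genes tested). It was EGFR, which fell by 0.85 (SE 0.13, edgeR adjusted p = 0.00201). Of 12 estrogen-linked cell cycle genes, 16.7% passed the threshold, again near the 13.6% of all genes tested. MYC rose by 0.56 (SE 0.07) and MYBL2 fell by 0.64 (SE 0.18), and the median was -0.00. A list of 20 genes of the G2 and M phases moved together, with 20 of 20 lower, against 7.81% of all genes tested, and a median of -0.82. Their summed level was 1800 to 2310 CPM in high and 3470 to 3690 CPM in low. Its part in the changes of the estrogen-responsive genes was not tested.

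Counts of coregulators of the receptor stand beside the 13.6% of all genes tested that passed the threshold. Of 11 tested coactivators, NCOA3 alone passed the threshold and fell by 0.28 (SE 0.07, edgeR adjusted p = 0.0244), and of 9 tested corepressors 0 passed it in edgeR and 0 in DESeq2, with 1 at an unadjusted p under 0.05. Among the pioneer and luminal factors, GATA3 rose by 0.60 (SE 0.11), whereas TLE3, XBP1 and FOXA1 fell by 0.55 (SE 0.12), 0.34 (SE 0.09) and 0.23.

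**Figure D5:**
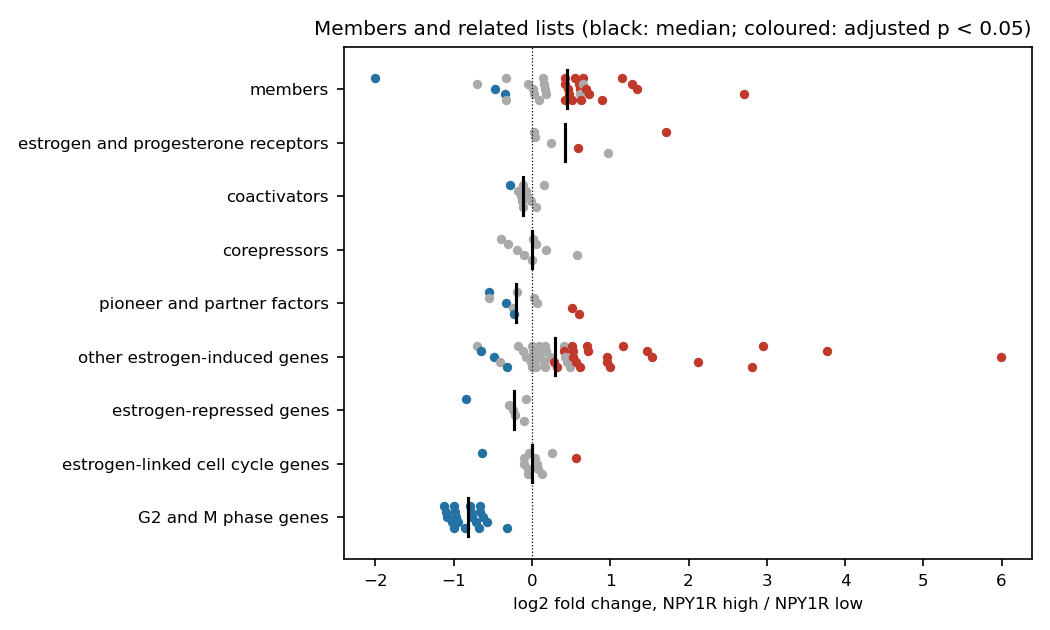
Log2 changes (x axis, NPY1R high minus low) of the tested genes of each list (rows), with the median in black and genes past the threshold coloured. The estrogen-responsive genes have a median of 0.44 and the G2 and M phase genes one of -0.82.

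The summed levels of cell type markers overlapped between the groups. The summed level of 10 luminal markers was 7450 to 8540 CPM in high and 7350 to 9580 in low, and among them ESR1 and GATA3 rose, as given above, whereas FOXA1 and EPCAM fell, the last by 0.30 (SE 0.05, edgeR adjusted p = 0.00436). Summed basal markers were at 8.07 to 11.7 CPM in high and 7.64 to 10.5 in low, and fibroblast markers at 10.9 to 17.5 and 10.4 to 17.6. Immune markers were at 1.43 to 2.27 CPM and 1.69 to 2.77. Endothelial markers were at 9.22 to 15.6 CPM in high and 13.5 to 18.2 in low, led by VWF with an edgeR adjusted p of 0.0987. Their part in the changes of the estrogen-responsive genes was not tested.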

How the data were processed

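The deposited tables hold expected counts per gene symbol for the 8 libraries, made with STAR 2.5.2 and RSEM 1.3.0 on hg38, per the submitters' processing notes. Non-whole values make up 7.97% to 8.76% of each library. Rounding to whole numbers came first, since the tests were written for counts. The table of the series and the 8 single tables differed in 0 values. Genes were kept with edgeR's filterByExpr (minimum count 10) and scaled by TMM, and the groups were tested against each other with edgeR's quasi-likelihood test, with group as the only term. P-values were adjusted by Benjamini-Hochberg over 14008 genes. Log2 CPM used a prior count of 2. The tools were DESeq2 1.42.0, limma 3.58.1 and edgeR 4.0.16 in R 4.3.3. The biological coefficient of variation was 13.6%. Transcript lengths and GC content were taken from GENCODE 29, which gave a GC value to 97.4% of tested genes. The procedure was tested on simulated counts. The members and lists were chosen with earlier results of these data known, although the rule for the members uses no measured value, so shares of them that rose or fell are not those of an independently chosen list. All 35 genes are named, and some genes of the related lists are not reported here. Other scalings, filters, tools, a replicate block, a GC offset (spline, 5 degrees of freedom) and leaving out each library were tried.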

Additional observations from a re-analysis of the deposited data

Results flagged for a closer look

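Among 74 values of a gene in a group of 4 libraries, 4 had a library whose gap to the nearest of the others exceeded the 95% critical value of Dixon's test. Chance alone gives 3.7. AGR3 was at 9.73 CPM in NPY1R high replicate 3, above the other 3 high libraries. PRSS23 was at 162.94 CPM in the same library, again the highest of its group. TMPRSS3 was at 21.58 CPM in high replicate 1, below the other high libraries. CELSR2 was at 16.54 CPM in NPY1R low replicate 4, below the other low libraries.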

How the results depend on the processing

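Over 28 alternatives, between 16 and 20 of the estrogen-responsive genes rose and between 2 and 4 fell, with medians from 0.443 to 0.503, while the median of all genes ran from -0.038 to 0.025. At an adjusted p under 0.01, 15 rose and 2 fell. Of 951 values of single genes, 912 kept their call and direction, 14 lost the call, 18 gained one and 7 changed sign. Of the 21 genes past the threshold, 17 kept it in all 28, and STC1 kept it in 27 and was not tested with a minimum of 1 CPM in 4 libraries. The number of all genes called rose to 2977 under the GC offset, to 2886 when replicates 1 and 2 were set apart from 3 and 4 by a term, and to 3424 when the GC offset was joined to the replicate block. It was 1032 at an adjusted p under 0.01. The correlations of same-numbered deviations were 0.339, 0.157, 0.0905 and 0.0179, and 2 of 8 libraries correlated best with their own number. These values cannot decide whether same-numbered libraries are pairs, since replicates 1 and 2 differed from 3 and 4 in both groups. With the replicate block, 18 of the genes rose and 4 fell, with a median of 0.449, and 1833 of all genes were called. SLC39A6 changed sign, to 0.007 with upper-quartile factors and within -0.076 to 0.033 on leaving out single libraries. CELSR2 changed sign, to -0.006 with limma-voom and within -0.058 to 0.173 on leaving out single libraries. The cause was not tested. Depth limits what can be read of WISP2, STC1, ELOVL2 and SCUBE2, which lay below 4 CPM. It also limits PDZK1, which lay at 0.21 to 1.05 CPM in low and at 1.9 to 6.59 CPM in high.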
